A study of Mus musculus with 10 samples.

Results

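The interferon-stimulated genes described here are a set of 36 genes, of which 35 are switched on when cells sense interferon and the other is Ifng, which encodes interferon gamma itself. The members were given by symbol. Each was looked up through the Ensembl identifiers of the deposited tables, which list 41388 genes, and 35 of the 36 were found. The exception was Gbp5, whose symbol no identifier carried. Of the 35, 33 passed the filter on low counts and were tested, whereas Ifng and Cxcl11 did not and are given as values.

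The data are RNA-seq libraries of whole ear skin from 10 C57Bl/6 mice, with 1 library per mouse, in an Experimental group of 6 and a Littermate group of 4. The sample labels give the Experimental genotype as NaV1.8+ Jak1F/F and that of the littermates as WT, whereas the series text names NaV1.8+ Il4raF/F mice, so which floxed gene the Experimental mice carried is not settled here. NaV1.8 is a voltage-gated channel found in sensory neurons, and their cell bodies lie outside the ear. Per the series text both groups were treated with MC903 (calipotriol, a vitamin D analogue that produces an itching skin inflammation). The text states 1 nM daily for 12 days beside the littermates. Untreated skin is not analysed here, so how far MC903 itself moved these genes cannot be read from the 10 libraries. The labels used here give neither age nor sex, and they name no batch.

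Interferons are secreted proteins of antiviral and antitumour defence. Type I and type III interferons signal through the kinases JAK1 and TYK2 to a complex holding STAT2 and IRF9 that binds the interferon-stimulated response element (ISRE), while interferon gamma signals through JAK1 and JAK2 to genes with a gamma-activated site (GAS). The induced genes encode sensors of foreign nucleic acid, enzymes that degrade or block viral RNA, chemokines that draw T cells, and GTPases that attack intracellular microbes. Many are induced by more than one class of interferon, so their levels do not by themselves name the ligand.

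Stretches upstream of members are shown because the results below turn on genes that moved together from mouse to mouse. RefSeq start sites (GRCm38.p6) were given for 27 of the 36 members, and the 250 bases before each start were searched on both strands for the ISRE core (TTTC, any 2 bases, TTTC) and the GAS (TTC, any 3 bases, GAA). The ISRE core was present for 12 of these 27 genes (44.4%), against 3.46% of all 27025 genes with a window. The GAS was present for 8 of the 27 (29.6%), against 8.13% of all genes. The lines below give the windows of the ubiquitin-like modifier Isg15, the RNA-binding Ifit1, the chemokine Cxcl10 and the GTPase Gbp2, all with an ISRE match, of the transcription factor Irf1, with a GAS match, and of Ifit2, whose libraries fell in another order than those of the other members. Capitals mark matches, overlapping ones joined.
Isg15 (chr4:156200819-156201068, minus strand): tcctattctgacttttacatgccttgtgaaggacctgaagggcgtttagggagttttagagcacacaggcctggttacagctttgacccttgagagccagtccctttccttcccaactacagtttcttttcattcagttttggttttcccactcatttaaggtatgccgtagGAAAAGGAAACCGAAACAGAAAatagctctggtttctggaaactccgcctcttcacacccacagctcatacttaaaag
Ifit1 (chr19:34640639-34640888, plus strand): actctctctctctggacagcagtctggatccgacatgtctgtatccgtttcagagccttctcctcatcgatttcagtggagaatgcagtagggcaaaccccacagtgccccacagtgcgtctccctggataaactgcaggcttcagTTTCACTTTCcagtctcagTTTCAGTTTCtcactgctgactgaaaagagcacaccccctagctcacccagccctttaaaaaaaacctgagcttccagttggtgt
Cxcl10 (chr5:92348890-92349139, minus strand): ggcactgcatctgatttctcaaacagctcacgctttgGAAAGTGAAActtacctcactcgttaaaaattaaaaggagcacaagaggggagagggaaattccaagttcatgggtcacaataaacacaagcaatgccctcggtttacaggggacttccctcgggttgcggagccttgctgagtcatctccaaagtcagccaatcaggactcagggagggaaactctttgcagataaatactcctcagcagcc
Gbp2 (chr3:142620413-142620662, plus strand): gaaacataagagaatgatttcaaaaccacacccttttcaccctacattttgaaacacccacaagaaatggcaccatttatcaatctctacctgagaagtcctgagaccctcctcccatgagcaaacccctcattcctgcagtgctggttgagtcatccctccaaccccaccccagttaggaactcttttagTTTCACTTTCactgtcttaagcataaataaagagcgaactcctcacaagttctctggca
Irf1 (chr11:53769764-53770013, plus strand): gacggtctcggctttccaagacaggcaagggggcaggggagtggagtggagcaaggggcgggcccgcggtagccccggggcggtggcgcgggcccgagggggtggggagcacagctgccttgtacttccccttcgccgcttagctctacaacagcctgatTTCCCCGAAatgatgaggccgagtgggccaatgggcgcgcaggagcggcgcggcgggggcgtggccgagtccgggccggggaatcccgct
Ifit2 (chr19:34550444-34550693, plus strand): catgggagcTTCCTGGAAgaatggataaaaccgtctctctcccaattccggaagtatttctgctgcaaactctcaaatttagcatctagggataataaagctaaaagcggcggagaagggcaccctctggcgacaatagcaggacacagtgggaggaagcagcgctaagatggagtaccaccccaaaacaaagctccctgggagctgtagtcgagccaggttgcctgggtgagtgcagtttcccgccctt
Isg15 held 3 overlapping ISRE matches, beginning between positions -78 and -66 from its start, and Ifit1 held 2, at -104 and -85. In Gbp2 the match lay at -59 and in Cxcl10 at -213. The Irf1 GAS lay at -90 and that of Ifit2 at -241. A match describes these letters only. The windows of Irf7, Irf9, Cxcl9, Ifih1, Ddx58, Oasl1, Oasl2, Cmpk2, Ifi35, Ifi44 and Xaf1 held neither motif as searched. The second windows of Ifit2, Irf1 and Gbp3 held neither as well.

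Within each group the members rose and fell together across mice. Among the 6 Experimental libraries, Experimental 4 was the lowest for 32 of the 33 tested members, and Experimental 6 was the highest for 27. Over all 16830 genes tested, Experimental 4 was the lowest for 20.1% and Experimental 6 the highest for 19.5%. Among the 4 Littermate libraries, Littermate 1 was the highest for 32 of the 33 members, against 21.1% of all genes tested. The exception to both 32 counts was Ifit2.

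On the log2 scale, the members in Experimental 4 lay a median of 0.87 below the mean of their group (-0.87), and none of the 33 lay above it. Those in Experimental 6 lay 0.57 above it, with 33 of 33 above the mean, and those in Littermate 1 lay 0.73 above the Littermate mean, also with 33 of 33. The median deviation over all genes tested was 0.00 in each of these 3 libraries. Experimental 1 and 3 stood above their group mean by 0.26 and 0.21, Experimental 2 by 0.04, and Experimental 5 stood below it at -0.18. The other 3 Littermates were close to each other, at -0.27 in Littermate 2, -0.30 in Littermate 3 and -0.12 in Littermate 4. The 2 lowest Experimental libraries were 4 and 5 for 26 members, an order shared by 8.35% of all genes tested.

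**Figure D1:**
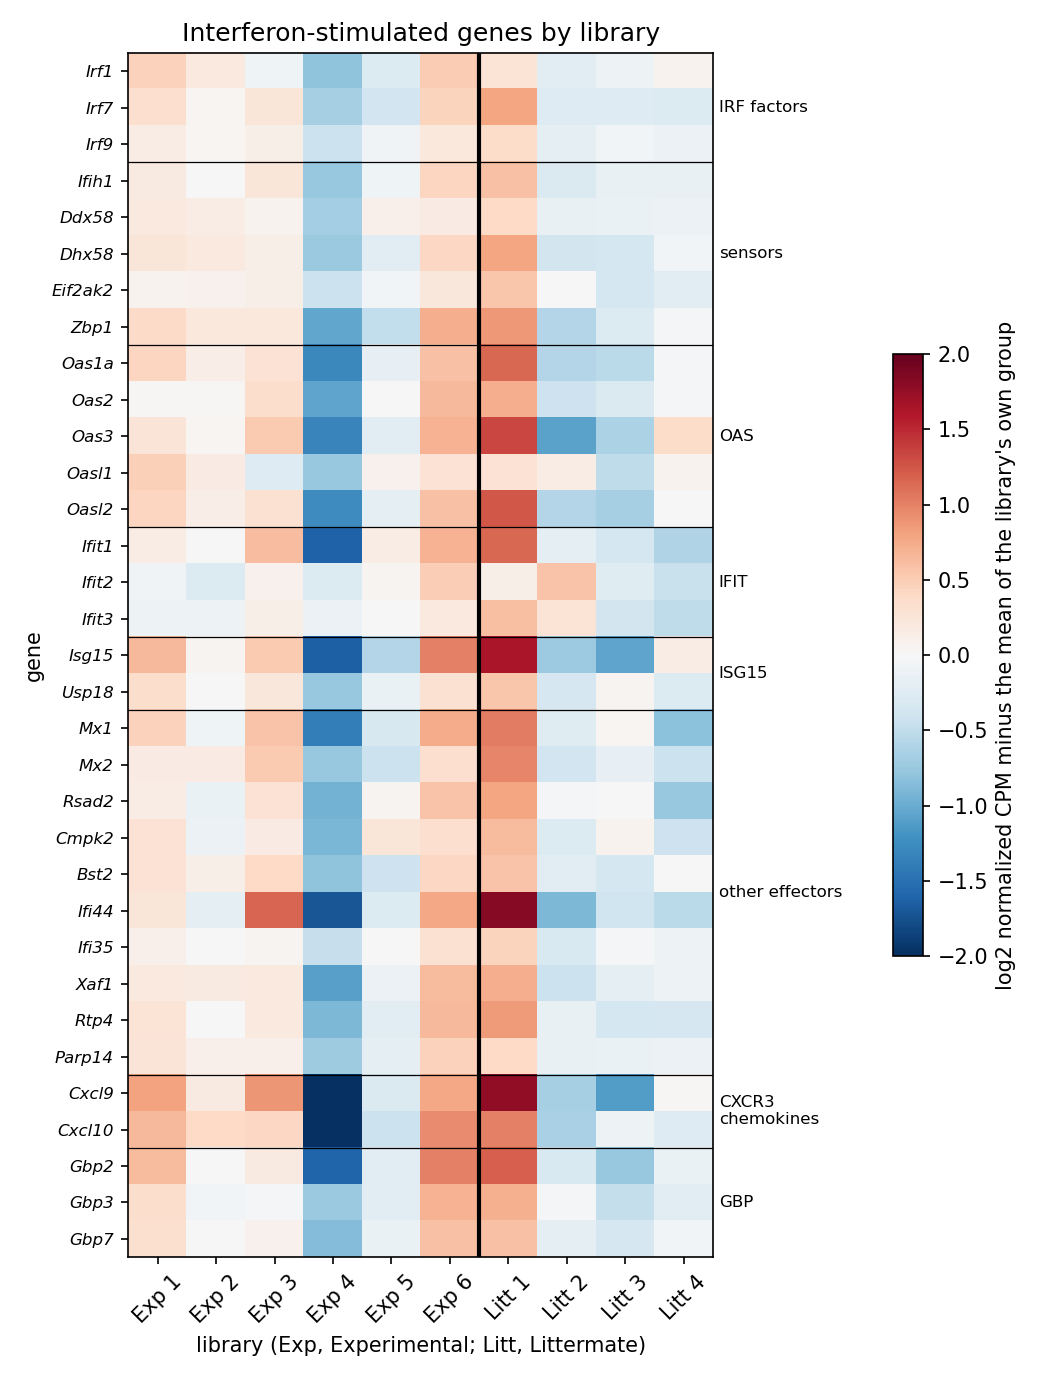
Each cell shows the log2 normalized CPM of a tested member (rows, grouped by role) in a library (columns, 6 Experimental on the left and 4 Littermate on the right) minus the mean of that library's own group. The column of Experimental 4 is blue for nearly every gene and the columns of Experimental 6 and Littermate 1 are red, while Ifit2 and Ifit3 show weaker or other patterns.

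The deviations were large beside those of other genes. The 168 genes (1%) that fell furthest below the group mean in Experimental 4 held 17 of the 33 members. They also held 14 of 54 further interferon-stimulated genes from a separate list. At the other end, the 168 genes that lay furthest above the group mean in Littermate 1 held 19 members and 8 of the 54. The upper 168 held 4 members in Experimental 1, 4 in Experimental 3 and 3 in Experimental 6, and the lower 168 held 2, 4 and 2 in Littermates 2, 3 and 4. No member was among the 168 at either end in Experimental 2 and 5.

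**Figure D2:**
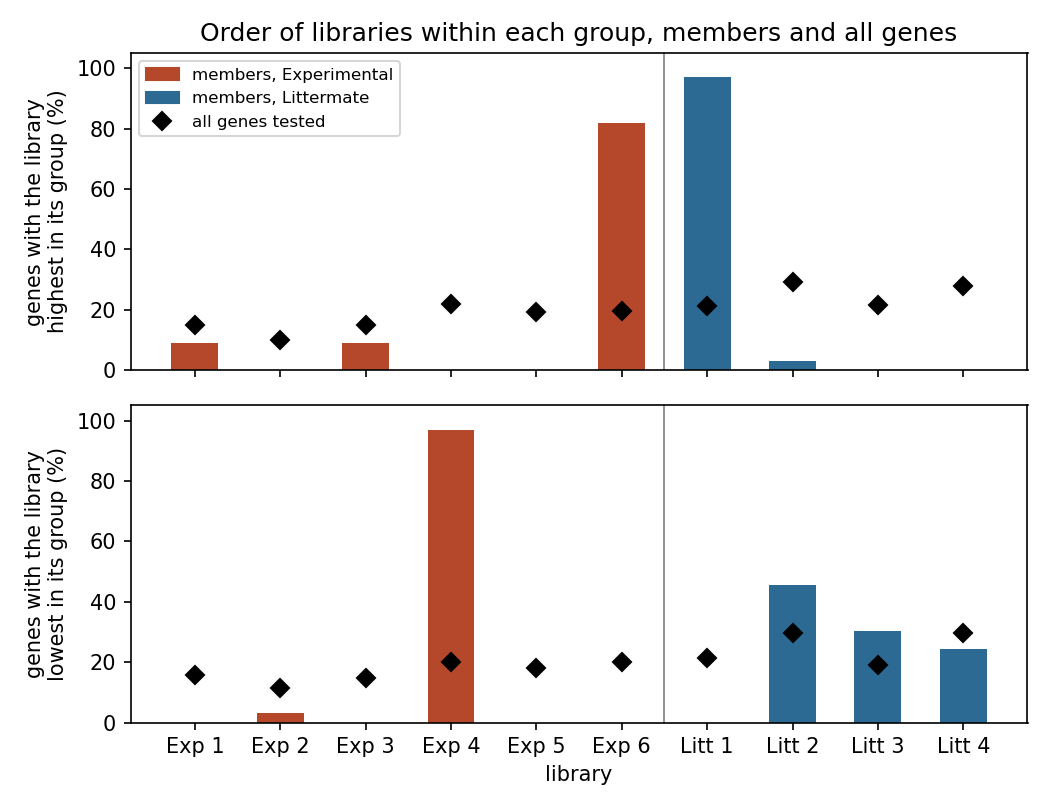
Bars give the percentage of the 33 tested members for which each library was the highest (upper panel) or the lowest (lower panel) of its own group, Experimental in red and Littermate in blue, and diamonds give the same percentage over all 16830 genes tested. The bars of Experimental 6 and Littermate 1 (upper) and of Experimental 4 (lower) stand far above their diamonds, while the diamonds lie between 9.88% and 29.8%.

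The interferon genes examined, Ifng, Ifnb1, Ifnk, Ifne, Ifnl2, Ifnl3, Ifna1, Ifna2 and Ifna4, had few or no counts. Ifng, the interferon of T and NK cells, had 23 counts over the 6 Experimental libraries and 3 over the 4 Littermates. In no library did it exceed 0.263 CPM, where 3 counts were worth 0.0715 to 0.260 CPM, so no fold is given. Ifnb1 and Ifne had 2 counts each and Ifna2, Ifnl2 and Ifnl3 had 1 count each over the Experimental libraries, all with none in Littermates. Ifna4 had none over the Experimental libraries and 2 counts in Littermate 2, and Ifna1 had no count in any library. Ifnk, the interferon of keratinocytes, was the best covered of the type I genes examined, with 58 counts in Experimental and 31 in Littermate libraries. It ran from 0.175 to 0.756 CPM in Experimental skin, highest in Experimental 6, and from 0.235 to 0.857 CPM in Littermate skin, lowest in Littermate 1. In Littermate 1, 3 counts were worth 0.233 CPM, so these levels are too close to the floor for the order of libraries to be read.

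The receptor chains were all expressed. They varied about as much as other genes in the Experimental group and less in the Littermate group. Their median SD of log2 CPM was 0.15 over Experimental and 0.10 over Littermate libraries. Over all genes tested it was 0.16 and 0.19, and over the members 0.50 and 0.52. Ifnar1, a chain of the type I receptor, ran from 59.2 to 82.3 CPM over the Experimental libraries and from 65.8 to 73.9 CPM over the Littermates. Its partner Ifnar2 ran from 23.9 to 32.5 CPM over Experimental and from 31.0 to 32.7 CPM over Littermate libraries, with a log2 fold change of -0.18 (95% interval -0.36 to 0.01; adjusted p by edgeR 0.452). Ifngr1, the ligand-binding chain of the interferon gamma receptor, averaged 163 ± 16.8 CPM in the 6 Experimental mice and 152 ± 12.3 CPM in the 4 Littermates (SD), and did not pass (log2 fold change 0.10; adjusted p by edgeR 0.691). Across the 6 tested chains the ratio of the highest to the lowest library was at most 1.43 in the Experimental group and 1.26 in the Littermate group. For Experimental 4 the direction was shared all the same, since 5 of the 6 chains were lowest there, against 20.1% of all genes tested. For Littermate 1 it was not shared, since 0 of the 6 chains were highest there, against 21.1% of all genes tested.

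In the relay, the kinase Jak1 ran from 273 to 324 CPM in Experimental and from 280 to 335 CPM in Littermate libraries. Stat2, which is itself interferon-induced, had 30.6 CPM in Experimental 4, a median of 47.6 and 55.5 CPM in Experimental 6, against 67.2, 32.0, 31.8 and 45.7 CPM in Littermates 1 to 4. It was lowest in Experimental 4 and highest in Experimental 6 and Littermate 1 within their groups. The groups overlapped, and Stat2 did not pass (log2 fold change 0.03; adjusted p by edgeR 0.973).

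Among the transcription factors, Irf7, the amplifier of type I interferon production, showed the pattern most plainly in Littermates. It had 47.1 CPM in Littermate 1 and 22.7, 22.8 and 22.6 CPM in Littermates 2, 3 and 4. In the Experimental group it ran from 18.5 CPM in Experimental 4 through a median of 32.5 to 39.9 CPM in Experimental 6. The groups overlapped (Irf7 log2 fold change 0.10, 95% interval -0.51 to 0.70; adjusted p by edgeR 0.927). Irf1, a transcription factor that interferon gamma induces, ran from 39.6 to 98.3 CPM around a median of 71.9 in Experimental libraries and had 68.2, 48.4, 52.5 and 59.1 CPM in Littermates 1 to 4. For Irf1 the log2 fold change of 0.35 had the lowest unadjusted p of the members (0.165; adjusted p by edgeR 0.601). Irf9, the DNA-binding partner of STAT2, varied less, from 53.4 to 83.3 CPM in Experimental and from 56.0 to 82.1 CPM in Littermate libraries.

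The 5 cytosolic sensors were all lowest in Experimental 4 and highest in Littermate 1 within their groups. Ifih1 (MDA5, a sensor of long double-stranded RNA) had 32.4 CPM in Experimental 4, a median of 58.5 and 73.7 CPM in Experimental 6, against 66.8, 36.6, 40.2 and 40.4 CPM in Littermates 1 to 4. Ddx58 (RIG-I, a sensor of short RNA ends) had 27.2 CPM in Experimental 4 and 45.9 to 50.4 CPM in the other 5 Experimental libraries, highest in Experimental 1, with 49.0 CPM in Experimental 6. In Littermate 1 it had 51.2 CPM and in the other 3 Littermates 34.7 to 35.7 CPM, so that 1 library of each group stood apart. Zbp1, a sensor of Z-form nucleic acid, ran from 6.29 to 21.4 CPM in Experimental libraries and had 7.33, 9.10 and 10.8 CPM in Littermates 2, 3 and 4, all below Littermate 1. Dhx58, a regulator of these sensors, ran from 7.43 to 16.5 CPM in Experimental and from 8.50 to 19.0 CPM in Littermate libraries. The kinase Eif2ak2 (PKR), which halts translation on double-stranded RNA, ran from 23.9 to 37.6 CPM in Experimental libraries and had 31.0, 24.1 and 26.6 CPM in Littermates 2, 3 and 4, again below Littermate 1. Fold changes of the 5 sensors lay between 0.05 and 0.30 on the log2 scale.

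The oligoadenylate synthetases make the second messenger that activates RNase L. Oasl2 ran from 10.5 CPM in Experimental 4 through a median of 29.4 to 37.9 CPM in Experimental 6. It had 46.2 CPM in Littermate 1 and 12.9, 12.2 and 19.6 CPM in Littermates 2, 3 and 4. Oas3 ran from 4.98 to 20.2 CPM in Experimental libraries and had 24.5, 4.62, 6.26 and 12.5 CPM in Littermates 1 to 4, so that Littermate 4 stood between Littermate 1 and the other 2. Oas1a ran from 3.35 to 12.3 CPM in Experimental and from 3.74 to 12.4 CPM in Littermate libraries. Of the 33 members Oas1a had the highest log2 fold change (0.50, SE 0.40; adjusted p by edgeR 0.675), with overlapping groups. Oas2 ran from 7.51 to 24.6 CPM in Experimental and from 10.8 to 23.8 CPM in Littermate libraries. Oasl1, which in mouse restrains Irf7 translation, was the flattest of the 5, at 1.80 to 4.26 CPM in Experimental and 2.20 to 3.83 CPM in Littermate libraries.

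The IFIT genes lie side by side on chromosome 19 and encode proteins that bind foreign RNA, yet they differed from each other. Ifit1 ran from 4.16 CPM in Experimental 4 to 20.7 CPM in Experimental 6 around a median of 14.2, and had 29.0, 11.4, 10.2 and 8.57 CPM in Littermates 1 to 4. Ifit2 ran only from 9.30 to 15.9 CPM in Experimental libraries, and its highest Littermate was Littermate 2, with 15.8 CPM against 11.6 CPM in Littermate 1. Ifit3 ran from 7.59 to 9.37 CPM in Experimental libraries, the narrowest range of the members, and had 12.1, 9.67, 6.18 and 5.61 CPM in Littermates 1 to 4. The ratio of the highest to the lowest Experimental library was 4.97 for Ifit1, 1.71 for Ifit2 and 1.23 for Ifit3. Ifit3 has a near-identical copy, Ifit3b, so reads may be shared between the pair.

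Isg15, a ubiquitin-like protein that is joined to other proteins, and Usp18, the protease that removes it and restrains the type I receptor, were both lowest in Experimental 4 and highest in Littermate 1 within their groups. Isg15 (chromosome 4, 156199424 to 156200818) had 14.3, 9.46, 13.1, 2.94, 6.12 and 18.3 CPM in Experimental 1 to 6 and 21.1, 4.10, 3.27 and 7.48 CPM in Littermates 1 to 4. Its highest library exceeded its lowest by 6.23 times in the Experimental group and 6.46 times in the Littermate group. Isg15 averaged 10.7 ± 5.65 CPM in the 6 Experimental mice and 8.99 ± 8.29 CPM in the 4 Littermates (SD), with overlapping groups (log2 fold change 0.29, 95% interval -1.10 to 1.67; unadjusted p by edgeR 0.652). Usp18 had 14.5, 11.4, 13.2, 6.70, 10.4 and 14.0 CPM in Experimental 1 to 6 and 14.6, 7.84, 10.3 and 8.18 CPM in Littermates 1 to 4. In Littermate 3, Isg15 was thus the lowest of its group and Usp18 next to the highest, and the highest Experimental library was 6 for Isg15 and 1 for Usp18.

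**Figure D3:**
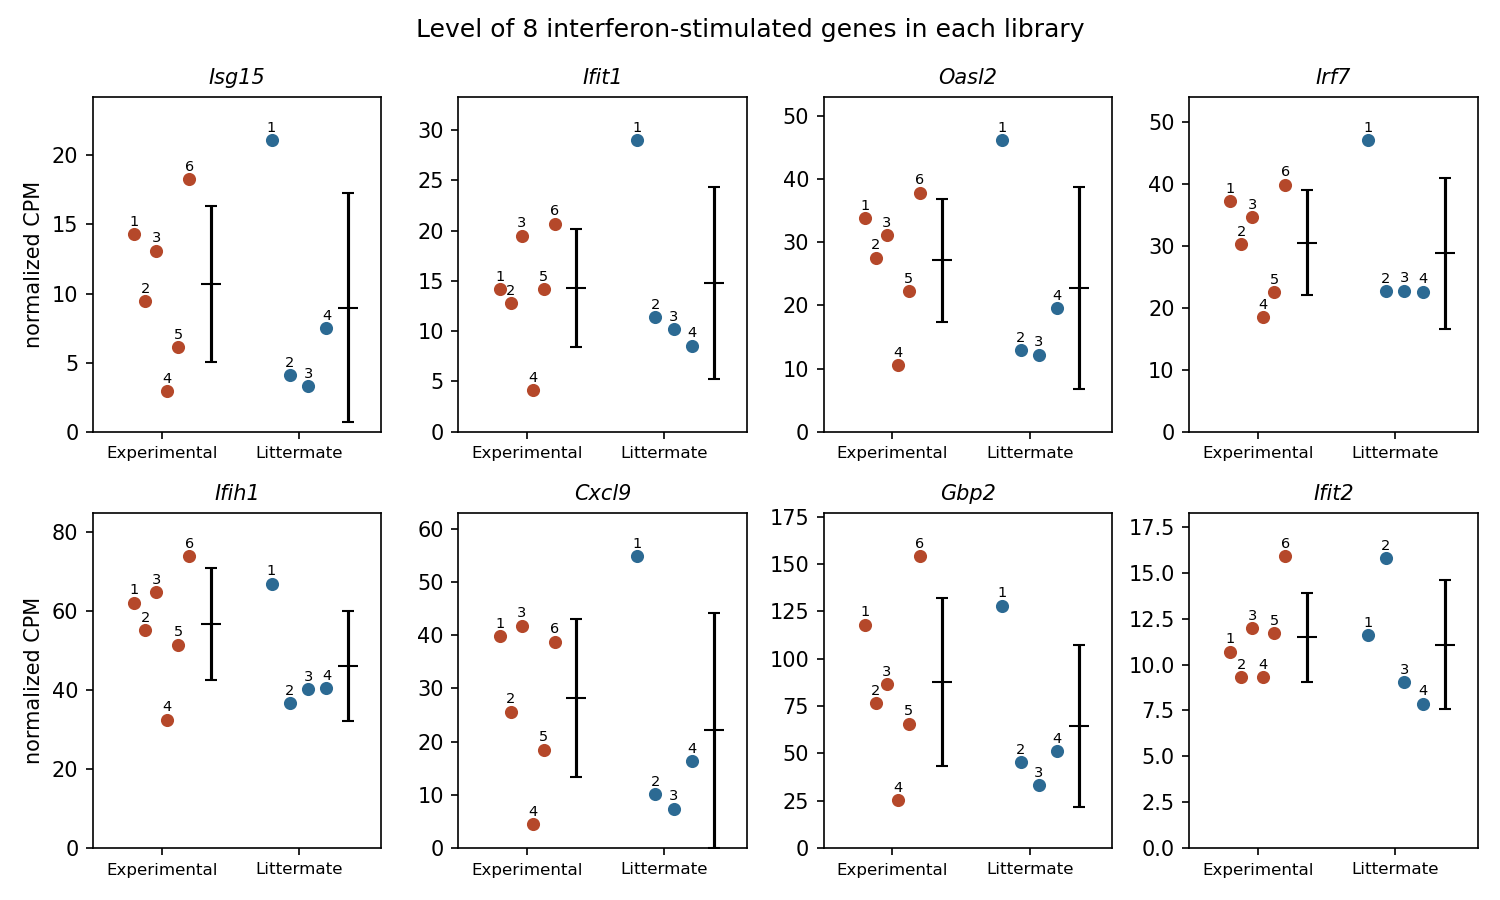
Points give the normalized CPM of 8 members in each library, numbered by replicate, for Experimental (red) and Littermate (blue) mice, and the bar beside each group gives the mean ± SD (n = 6 and n = 4). Experimental 4 is at the bottom and Littermate 1 at the top of its group in 7 panels, and in the eighth, Ifit2, Littermate 2 is the highest Littermate.

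Among the other antiviral effectors, Ifi44 had the widest range. It had 1.22 CPM in Experimental 4, a median of 4.12 and 8.98 CPM in Experimental 3, against 11.5, 1.76, 2.49 and 2.26 CPM in Littermates 1 to 4. Mx1, a dynamin-like GTPase, ran from 4.49 to 19.5 CPM in Experimental and from 7.25 to 25.9 CPM in Littermate libraries. C57BL/6 mice are known to carry a defective Mx1 allele, so its RNA does not stand for working protein. Rsad2 (viperin), which makes a chain-terminating nucleotide with the product of Cmpk2, had the lowest log2 fold change of the members (-0.21, 95% interval -0.87 to 0.45; adjusted p by edgeR 0.834). It ran from 4.90 to 14.0 CPM in Experimental libraries and had 18.5, 10.5, 10.7 and 6.31 CPM in Littermates 1 to 4. Its neighbour Cmpk2 ran from 2.61 to 6.23 CPM in Experimental and from 3.66 to 7.59 CPM in Littermate libraries. Bst2 (tetherin), which holds budding virus at the cell surface, ran from 15.1 to 35.1 CPM in Experimental and from 16.8 to 31.8 CPM in Littermate libraries. Parp14, an ADP-ribosyltransferase, had the highest mean CPM of the set, 99.5 ± 25.4 in the 6 Experimental mice and 95.2 ± 19.2 in the 4 Littermates (SD). Mx2 (the paralog of Mx1), Ifi35 (a partner of Nmi), Xaf1 (an antagonist of the apoptosis inhibitor XIAP) and Rtp4 (a chaperone of receptors) stood at -0.12, 0.18, 0.23 and 0.31 on the log2 fold scale. They were all lowest in Experimental 4 and highest in Littermate 1 within their groups.

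The chemokines that attract T cells through CXCR3 had some of the steepest differences between mice. Cxcl9, which depends mainly on interferon gamma, had 39.8, 25.6, 41.8, 4.49, 18.5 and 38.8 CPM in Experimental 1 to 6. In Littermates 1 to 4 it had 54.8, 10.1, 7.39 and 16.3 CPM. The highest library exceeded the lowest by 9.30 times in the Experimental group and by 7.41 times in the Littermate group. The groups overlapped (Cxcl9 log2 fold change 0.37, 95% interval -1.17 to 1.92; adjusted p by edgeR 0.876). Cxcl10 ran from 2.37 to 18.1 CPM around a median of 12.4 in Experimental libraries, and had 16.7, 5.28, 7.68 and 6.93 CPM in Littermates 1 to 4. Cxcl11, which did not pass the filter, ran from 0.245 to 1.12 CPM in Experimental libraries and had 1.02, 0.366, 0.427 and 0.390 CPM in Littermates 1 to 4. In C57BL/6 mice Cxcl11 is known to carry a frameshift, so this RNA is not expected to give full-length protein.

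The guanylate-binding proteins are GTPases that coat intracellular microbes. Gbp2 (chromosome 3, 142620602 to 142638008) had 118, 76.5, 86.6, 25.3, 65.6 and 154 CPM in Experimental 1 to 6 and 128, 45.4, 33.3 and 51.0 CPM in Littermates 1 to 4. Gbp2 averaged 87.5 ± 44.1 CPM in the 6 Experimental mice and 64.4 ± 43.0 CPM in the 4 Littermates (SD), with overlapping groups (log2 fold change 0.45, 95% interval -0.72 to 1.62; adjusted p by edgeR 0.785). Gbp3 ran from 13.7 to 37.4 CPM in Experimental and from 13.4 to 30.5 CPM in Littermate libraries. Gbp7 ran from 26.4 to 72.8 CPM in Experimental and from 35.1 to 66.8 CPM in Littermate libraries. All 3 were highest in Experimental 6 and Littermate 1 within their groups. The deposited gene model of Gbp2b (mm10 chromosome 3, 142496934 to 142619179) covers 45.5% of the exon bases that GENCODE M21 gives to Gbp5, so some Gbp5 reads may have been counted there. Gbp2b averaged 13.9 ± 5.58 CPM in the 6 Experimental mice and 11.1 ± 3.08 CPM in the 4 Littermates (SD).

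Levels between genes can be compared only per length. By the deposited RPKM, which divide by gene length and library total, Bst2 had the highest mean level of the members, 36.3 ± 10.8 in the 6 Experimental mice and 28.7 ± 8.73 in the 4 Littermates (SD). Gbp2 followed at 34.9 ± 17.6 RPKM in Experimental and 25.4 ± 17.0 RPKM in Littermate skin. Then came Ifi35 at 22.5 ± 3.58 and Irf1 at 18.3 ± 5.73 RPKM in Experimental skin, against 19.7 ± 4.56 and 14.2 ± 2.15 RPKM in Littermate skin. In Experimental skin the gap between neighbours in this order was smaller than the wider of their SDs. At the low end, Ifi44 stood at 0.781 ± 0.453 RPKM in Experimental and 0.730 ± 0.760 RPKM in Littermate skin, and Cxcl11 at 0.184 ± 0.0944 and 0.144 ± 0.0820 RPKM in Experimental and Littermate skin.

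The spread between mice of the same group was wider than for most genes. The median SD of log2 CPM over the members was 0.50 in the Experimental group and 0.52 in the Littermate group, against 0.16 and 0.19 over all genes tested. Among the 11034 genes within the members' range of mean levels the medians were 0.14 and 0.17. Of the 33 members, 28 exceeded the 90th percentile of that comparison (an SD of 0.29) in the Experimental group and 27 exceeded it (0.34) in the Littermate group. The median ratio of the highest to the lowest library was 2.73 in the Experimental and 2.23 in the Littermate group, against 1.35 and 1.34 over all genes tested. The SD of log2 CPM of Cxcl9 was 1.22 over Experimental and 1.26 over Littermate libraries, that of Ifi44 was 0.97 and 1.20, and that of Isg15 was 0.95 and 1.19. Ifit3 had an SD of 0.13 over Experimental and 0.52 over Littermate libraries.

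**Figure D4:**
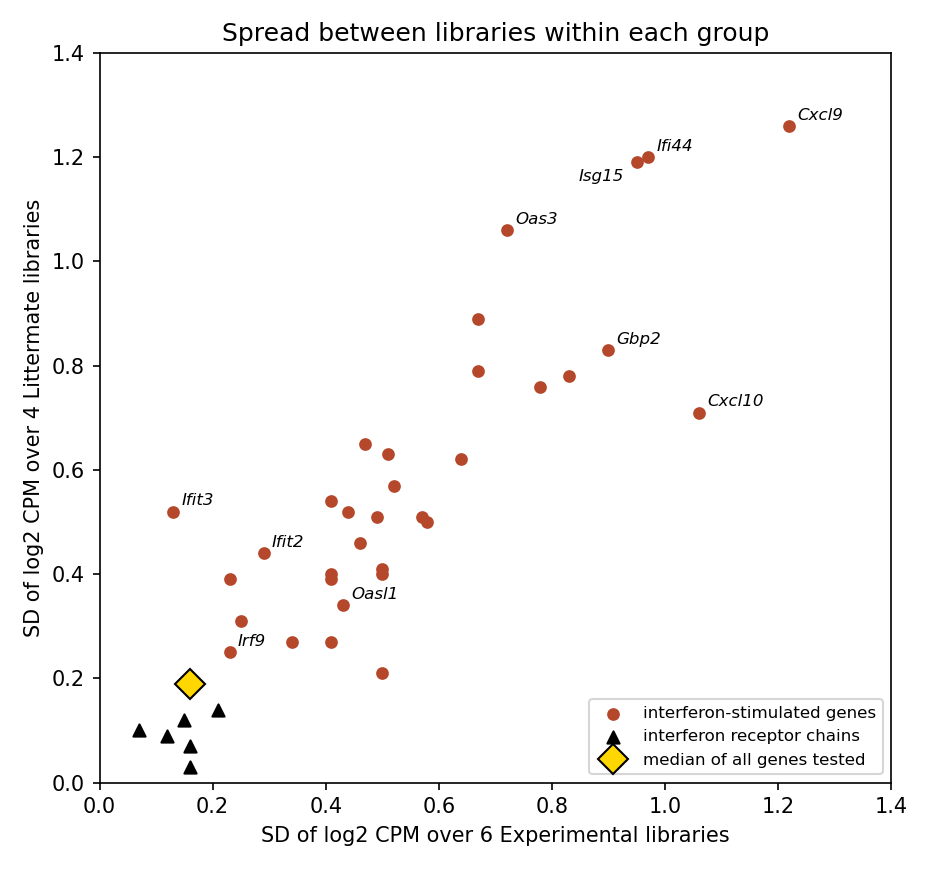
Each red point is a tested member, placed by the SD of its log2 CPM over the 6 Experimental libraries (horizontal) and over the 4 Littermate libraries (vertical), black triangles are the 6 interferon receptor chains and the diamond is the median of all 16830 genes tested (0.16 and 0.19). Nearly all members lie above and to the right of the diamond, while the receptor chains lie around or below it.

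Set against this spread, no difference between Experimental and Littermate skin was detected. None of the 33 tested members passed in the comparison of all genes (edgeR quasi-likelihood test, Benjamini-Hochberg adjusted p from 0.601 to 1), where 0.0178% of all genes passed. At an unadjusted p under 0.05 the count of members was again 0, against 11.8% of all genes tested. DESeq2 called 0 members, where 1.52% of all genes passed, and so did limma voom, where 0.0178% passed. The 95% intervals of all 33 members included 0. No member had groups that did not overlap, whereas 0.761% of all genes were higher and 1.35% lower in every Experimental library than in every Littermate.

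Point estimates leaned to the Experimental side without passing. The log2 fold change was above 0 for 27 members and below 0 for 6, with a median of 0.18. Over all genes 49.6% were above 0, with a median of 0.00. Members moved together from mouse to mouse, so their directions are not independent results. By role the median was 0.35 for Cxcl9 and Cxcl10, 0.31 for the guanylate-binding proteins, 0.21 for the oligoadenylate synthetases, 0.19 for the sensors, 0.18 for the transcription factors, 0.11 for the other effectors and -0.02 for the IFIT genes. These medians have no test of their own. The median over all members moved with the libraries included. With Littermate 1 left out the median over members was 0.47, and with Experimental 4 left out it was 0.30. Leaving out Littermate 2 gave 0.08, leaving out Littermate 3 gave 0.05 and leaving out Experimental 6 gave 0.09. With Littermate 2 and Experimental 6 both left out the median was -0.02.

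The intervals around these estimates differed in width. For the steadier members they were narrow, from -0.10 to 0.45 for Irf9 and from -0.14 to 0.50 for Ifi35. For Isg15, Cxcl9 and Gbp2 the upper bounds were 1.67, 1.92 and 1.62 and the lower bounds -1.10, -1.17 and -0.72. The median SE of the members was 0.29, against 0.12 over all genes tested.

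**Figure D5:**
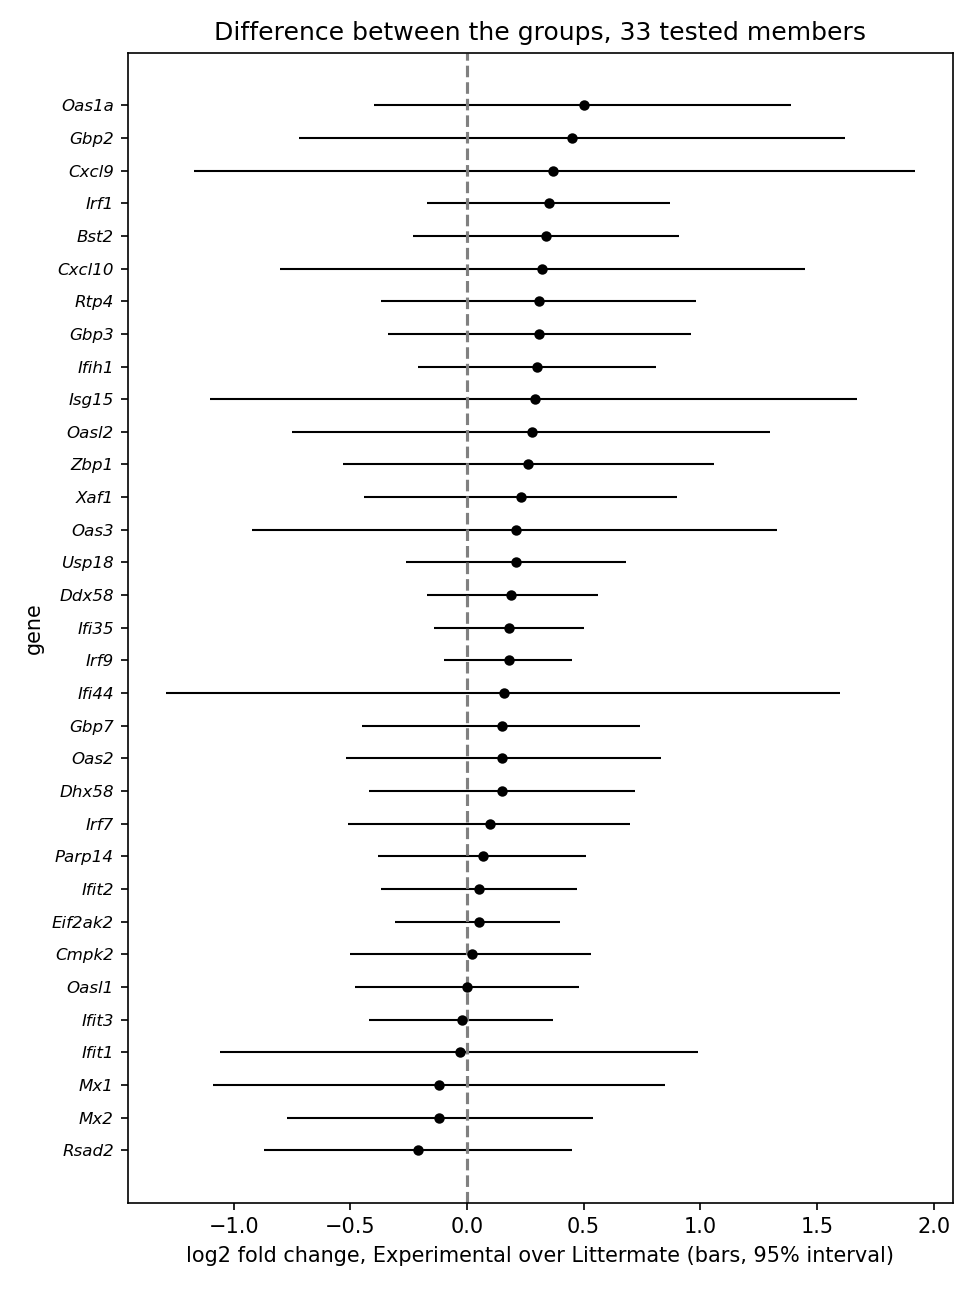
Points give the log2 fold change of each tested member, Experimental over Littermate, with bars for the 95% interval of the edgeR fit on 6 and 4 libraries, ordered by size. All 33 intervals cross the dashed line at 0, from the highest estimate (Oas1a, 0.50) to the lowest (Rsad2, -0.21).

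Other genes of the pathway were taken from 5 lists. Of 54 further interferon-stimulated genes tested, 0 passed in either direction, where 0.0178% of all genes tested passed. Their median log2 fold change was 0.14, with 41 above 0, against 49.6% of all genes tested. Experimental 4 was the lowest of its group for 51 of these 54, Littermate 1 the highest for 45 and Experimental 6 the highest for 32. Over all genes tested these shares were 20.1%, 21.1% and 19.5%. Genes that share a library order do not give independent directions. The genes with the lowest p in this list were Ms4a4c at 0.68, Samd9l at 0.22 and Nmi at 0.36 (adjusted p by edgeR 0.302, 0.474 and 0.514). Of 17 tested genes of antigen presentation none passed, with a median of 0.11. Experimental 4 was lowest for 10 of them and Littermate 1 highest for 10, beside the same 20.1% and 21.1% of all genes. The lowest p belonged to the proteasome genes Psme2 at 0.26 and Psmb8 at 0.36 and to the class I gene H2-K1 at 0.27 (edgeR, adjusted p = 0.368, 0.421 and 0.434). H2-K1 ran from 629 CPM in Experimental 4 to 1060 CPM in Experimental 1 and from 636 to 832 CPM in Littermates.

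The 16 genes of nucleic acid sensing and its adaptors (median -0.01) and the 13 of the relay and its feedback (median -0.01, Usp18 included) also had none that passed. Among the sensing genes Mavs stood at -0.15, Irf3 at 0.10 and Trim25 at -0.16, and in the relay Irf2, a repressor of interferon targets, stood at -0.32 and Irf2bp2 at -0.12 (edgeR, adjusted p from 0.355 to 0.621). Experimental 4 was the lowest of its group for 7 of the 16 sensing genes and 9 of the 13 relay genes. Littermate 1 was the highest for 9 and 8 of them, and Experimental 6 for 8 and 8. Over all genes tested the shares were 20.1%, 21.1% and 19.5%. The median SD of log2 CPM in Experimental libraries was 0.14 for sensing, 0.26 for the relay and 0.33 for the further interferon-stimulated genes.

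Depth, cell markers and the targeted genes were read beside these values. Total counts ran from 11520348 to 41935183 in Experimental and from 12865459 to 14324433 in Littermate libraries. Experimental 4 had 11986925 counts, and Littermate 1, with the lowest total of the Littermates, had 12865459. Experimental 5, with the lowest total of all, was lowest for none of the members. The 2 Experimental libraries with the lowest totals, 4 and 5, were also the 2 lowest for 26 members, against 8.35% of all genes tested. The part of depth in the library order was not tested. The 7 keratinocyte markers were counted in every library, led by Krt14. Their sum ran from 25300 to 32800 CPM in Experimental and from 27700 to 32400 CPM in Littermate skin. It was lowest in Experimental 4. Krt5, Krt14 and Krt1 were lowest there, whereas Krt10, Lor, Dsg3 and Trp63 were lowest in other Experimental libraries. In whole skin, fewer cells of a type and less RNA per cell cannot be told apart. The sum of 11 macrophage and monocyte markers ran from 1590 CPM in Experimental 4 to 2330 CPM in Experimental 6, and from 1940 to 2270 CPM in Littermates with Littermate 1 the highest. That of 11 NK and innate lymphoid markers ran from 38.8 CPM in Experimental 4 to 61.2 CPM in Experimental 6 and from 39.3 to 43.9 CPM in Littermates, with Littermate 3 the highest. Of 13 T cell markers the sum was 164 CPM in Experimental 3 to 198 CPM in Experimental 1, and in Littermates it was 173 to 228 CPM with Littermate 1 the highest. Thy1 made up most of that sum. Without it the other 12 ran from 53.6 CPM in Experimental 4 to 67.1 CPM in Experimental 6, and from 55.2 CPM in Littermate 3 to 64.8 CPM in Littermate 4, with 63.4 CPM in Littermate 1. Neutrophil markers summed to 217 CPM in Experimental 4 and 546 CPM in Experimental 6, the lowest and highest of that group. In Littermate 1 they summed to 329 CPM, the lowest of the Littermates (highest 631 CPM). The largest of these 8 markers was S100a9, and 7 of the 8 were counted in every library. How much of this sum came from neutrophils was not tested. Endothelial markers ran from 257 CPM in Experimental 4 to 338 CPM in Experimental 6 and from 282 to 400 CPM in Littermates, with 319 CPM in Littermate 1. Other lists fell in other orders. Dendritic cell markers summed to 96.0 CPM in Experimental 4 and were lowest of that group in Experimental 6 (76.9 CPM), with 80.0 CPM in Littermate 1 (highest Littermate 94.3 CPM). Fibroblast markers were lowest in Experimental 5 (8140 CPM) and highest in Experimental 6 (10600 CPM) and Littermate 4 (13500 CPM). Cartilage markers were highest in Experimental 4 (318 CPM) and Littermate 1 (312 CPM). Plasmacytoid dendritic cells, a main source of type I interferon, are marked by Siglech, which ran from 1.51 to 2.56 CPM in Experimental and from 1.32 to 2.20 CPM in Littermate libraries. That list as a whole (8 genes, 1120 to 1300 CPM in Experimental and 988 to 1240 CPM in Littermate libraries) is dominated by Ly6d, which keratinocytes also express, and it holds the member Bst2. The part of these markers in the library order was not tested. Neither floxed candidate passed, Jak1 at -0.06 and Il4ra at -0.20 on the log2 fold scale (adjusted p by edgeR 0.815 and 0.678), and Scn10a, the gene of NaV1.8, had 1 count over the Experimental and 1 over the Littermate libraries.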

How the data were processed

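Whole ear skin of 10 mice (6 Experimental, 4 Littermate) was sequenced as rRNA-depleted total RNA with 50-base single reads. The deposited values are raw read counts per gene, made with STAR 2.0.4b and featureCounts 1.4.5 of Subread on mm10, per the submitters' processing notes. The authors' CPM are those counts scaled to the library total, and the deposited RPKM divide the CPM by gene length, as recomputed from the files. The protocol names no step that keeps strand. Reads where genes overlap could therefore come from either gene, as for Cxcl10 (8.75% of its exon bases lie under Art3, mean 31.2 CPM) and Irf7 (1.49% under Phrf1, 75.0 CPM). Ifi35 (16.8% under Gm11626) and Cxcl11 (41.7% under Gm2673) overlap genes with means of 0.109 and 0.008 CPM.

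Symbols were found for 97.3% of 41388 identifiers. The counts were tested in R 4.3.3 with edgeR 4.0.16 (TMM factors 0.984 to 1.02, filterByExpr, robust quasi-likelihood fit of group, 16830 genes, Benjamini-Hochberg threshold 0.05). Printed CPM are TMM-normalized, and SDs of log2 CPM use a prior count of 2. Total counts were 11520348 to 41935183, and 3 counts were worth 0.0715 to 0.260 CPM. DESeq2 1.42.0, limma 3.58.1 (voom), other scalings and filters, a replicate block, a covariate and the omission of libraries were tried as alternatives. The covariate was the log2 level of 4 Y-linked genes. Their sum ran from 282 to 340 CPM in Experimental and from 229 to 301 CPM in Littermate libraries. All 10 libraries held Y-linked RNA, so the covariate did not split them by sex. The fit was checked on simulated counts. Every member is named, with the targeted genes and the 3 genes of lowest p in each pathway list, except 1 gene of the relay list that is not reported here. The members and lists were chosen with earlier results of these data known. Each library is a different mouse per the labels. Differences between files exceeded sampling noise for every pair of replicates, so all 10 were counted.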

Additional observations from a re-analysis of the deposited data

Results flagged for a closer look

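In all, 10 values of members stood apart from the rest of their group by a test for single extreme samples, of 68 groups examined over 34 members, where chance alone gives about 1 in 20. Members move together, so several such values in 1 mouse are not independent results. Over all 16830 genes tested, the same test marked 0.648% as high in Littermate 1 and 0.529% as low in Experimental 4. Counting any Littermate library it marked 2.94% as high and 1.86% as low, and any Experimental library 4.57% and 1.93%. Of the 10 member values, all but 1 were high values of Littermate 1. There Irf7 had 47.1 CPM, against 22.6 to 22.8 CPM in the other 3 Littermates. Ifih1 had 66.8 CPM (others 36.6 to 40.4), Ddx58 had 51.2 CPM (others 34.7 to 35.7) and Ifit1 had 29.0 CPM (others 8.57 to 11.4). Mx2 had 8.45 CPM (others 3.19 to 3.84), Ifi44 had 11.5 CPM (others 1.76 to 2.49) and Rtp4 had 16.0 CPM (others 6.97 to 7.99). Parp14 had 124 CPM (others 84.8 to 86.7) and Cxcl11 had 1.02 CPM (others 0.366 to 0.427). In Experimental 4, Ddx58 had 27.2 CPM, against 45.9 to 50.4 CPM in the other 5 Experimental libraries. Outside the members, the interferon-stimulated Samd9l had 34.4 CPM in Experimental 4 (others 44.2 to 48.2), and the proteasome gene Psmb8 had 47.5 CPM in Littermate 1 (others 32.0 to 34.3).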

How the results depend on the processing

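No member was called in any of the 20 alternatives (lowest adjusted p 0.301, edgeR or DESeq2 or limma voom), where 0.0119% to 3.34% of all genes were. The count of all genes called moved, from 3 to 231 with DESeq2, 78 with no filter, 67 with the replicate block and 563 without Littermate 2 and Experimental 6. Leaving out 1 library at a time gave 3 to 343, the highest without Littermate 2, with 28 without Experimental 6 and 8 without Littermate 3. The cause was not tested. Correlations between the deviations of same-numbered mice were 0.03, -0.02, 0.09 and -0.02, against -0.13 to 0.14 for other pairs. So few pairs cannot decide whether the numbers stand for a pairing, and the labels name none. Of 660 member fold changes, 593 kept their direction and 67, over 21 members, changed sign. Oasl1 (main -0.00) was 0.00 with DESeq2 and RLE factors, 0.02 with totals, 0.01 with no filter, 0.13 with the Y-linked covariate and 0.06 without the 2 deepest libraries. Ifi44 was -0.10 in that last setting, which was chosen after seeing the data. With limma voom Ifit1 was 0.07, Ifit3 0.05 and Mx2 0.02. With the replicate block Oas2 was -0.01, Ifit2 -0.08, Cmpk2 -0.11, Parp14 -0.02 and Il10rb -0.01. With the Y-linked covariate Ifit2 was -0.25, Cmpk2 -0.13, Ifi44 -0.13, Il10rb -0.00 and Trim25 0.02. Without Littermate 2 and Experimental 6, Irf7 was -0.08, Dhx58 -0.04, Eif2ak2 -0.00, Zbp1 -0.05, Oas2 -0.11, Oas3 -0.19, Oasl2 -0.02, Ifit3 0.02, Isg15 -0.15, Cmpk2 -0.13, Ifi44 -0.20, Xaf1 -0.02, Parp14 -0.07, Cxcl10 -0.03, Gbp7 -0.05 and Il10rb -0.01. Leaving out 1 library gave Irf7 0.00 to 0.44, Eif2ak2 -0.06 to 0.27, Oas3 -0.06 to 0.83, Oasl1 -0.14 to 0.11, Ifit1 -0.21 to 0.53, Ifit2 -0.07 to 0.28, Ifit3 -0.16 to 0.21, Mx1 -0.33 to 0.34, Mx2 -0.25 to 0.33, Rsad2 -0.40 to 0.12, Cmpk2 -0.10 to 0.28, Ifi44 -0.15 to 1.20 and Parp14 -0.03 to 0.23. Ifng (26 counts over all libraries) and Cxcl11 (139 counts) were too low to pass the filter.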
